A study of Mus musculus with 4 samples.

Results

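The PYHIN genes of the Ifi200 cluster on mouse chromosome 1 were followed in the transcriptome of MLO-Y4 cells with and without mechanical loading. Members were chosen by name, as the rows of the gene count table listed under Ifi202b, Ifi203, Ifi204, Ifi207, Ifi209, Ifi211, Mndal and Aim2, and each name matched 1 row. These are 8 of the 55450 genes in the table, and the table holds 6 other PYHIN genes of the same cluster (Ifi205, Ifi206, Ifi208, Ifi213, Ifi214 and the pseudogene Ifi203-ps), which were used for comparison. MLO-Y4 is a clonal osteocyte-like cell line, labelled here as wild type, that was derived from the long bone of a mouse carrying the SV40 large T antigen under the osteocalcin promoter.

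RNA was sequenced from 4 libraries of this line, 2 unloaded and 2 loaded. Loaded cells grew on collagen-coated UniFlex plates, whose wells have a soft silicone floor, and received equiaxial stretch of 20% strain at 0.5 Hz for 12 h. Unloaded cells grew on ordinary Corning 6-well plates and stood in the incubator of the same tension system for 12 h without stretch. Plate type and coating thus differ with the group and cannot be told apart from stretching. The labels do not say whether replicates were separate cultures, so p-values measure the spread between these libraries only, which may be technical.

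PYHIN proteins join an amino-terminal pyrin domain, which assembles with other pyrin domains, to a carboxy-terminal HIN-200 domain, which binds double-stranded DNA. Most of the mouse genes are induced by interferon. AIM2 recruits the adaptor ASC (Pycard) and caspase-1 into an inflammasome when it meets DNA in the cytosol, p202 (Ifi202b) lacks the pyrin domain and restrains AIM2, and p204 (Ifi204) has been linked to cytosolic DNA sensing through STING, to binding of the retinoblastoma protein and to osteoblast differentiation with Runx2. The genes arose by local duplication, their number differs between mouse strains, and the reference used for mapping is that of a single inbred strain.

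The 14 PYHIN genes lie between 173350879 and 174031810 on chromosome 1 (GRCm38, the build also called mm10), an interval of 680.9 kb. The 21 other annotated genes in this interval or within 100000 bp of it had no count in any library. Because the promoters and coding sequences of the paralogs resemble each other, the sequences are shown first. Promoter windows of 300 bases (250 before and 50 after the RefSeq start site, GRCm38.p6) were found for 7 members. The motifs searched were the core of the interferon-stimulated response element (ISRE), a motif known from promoters of interferon-induced genes, written as GAAANNGAA or its reverse complement TTCNNTTTC, and the gamma-activated sequence (GAS), known from promoters of genes induced by interferon gamma, written as the palindrome TTCNNNGAA. The ISRE core occurred in 4 members and the GAS letters in 1, against 9.76% and 9.55% of the 27025 genes with a window (8.56% and 8.3% of all 32851 windows). The 76-base pieces below show the matches in the members, and in Ifi213 and Ifi205, paralogs whose counts are described later. Capitals mark the motif, and every piece reads 5′ to 3′ on the strand of its gene.
Ifi203, chr1:173942502-173942577, minus strand: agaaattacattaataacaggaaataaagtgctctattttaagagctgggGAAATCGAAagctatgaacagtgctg
Mndal, chr1:173880198-173880273, minus strand: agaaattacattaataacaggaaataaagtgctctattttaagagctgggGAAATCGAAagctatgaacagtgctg
Ifi207, chr1:173741825-173741900, minus strand: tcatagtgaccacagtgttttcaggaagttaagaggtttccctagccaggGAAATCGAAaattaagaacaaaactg
Ifi211, chr1:173913058-173913133, minus strand: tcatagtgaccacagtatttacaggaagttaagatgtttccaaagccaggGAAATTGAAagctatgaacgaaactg
Ifi205, chr1:174031864-174031939, minus strand: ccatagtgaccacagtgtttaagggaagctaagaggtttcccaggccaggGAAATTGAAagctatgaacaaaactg
Ifi213, chr1:173599320-173599395, minus strand: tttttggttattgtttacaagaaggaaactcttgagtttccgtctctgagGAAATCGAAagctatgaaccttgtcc
Ifi202b (GAS letters), chr1:173982967-173983042, minus strand: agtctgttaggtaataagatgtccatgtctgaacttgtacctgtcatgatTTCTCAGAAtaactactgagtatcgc

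The Ifi203 and Mndal pieces were identical over all 76 bases although they lie apart on the chromosome, and the Ifi207 and Ifi211 pieces were identical at 66 of 76. In these 4 members the motif began 35 (Ifi203), 36 (Mndal), 41 (Ifi207) and 37 (Ifi211) bases before the start site. For Ifi203 the match lay in the second of its promoter windows, and the first held none. A second Mndal promoter window, for another start site, held a match on the other strand. In Ifi202b the GAS letters began 148 bases before the start site, and its window held no ISRE core, so the motifs did not overlap. The windows of Ifi209 and Aim2 held neither motif. All 5 other PYHIN genes with a window held the ISRE core. The exact letters GAAATCGAA, chosen after the matches were seen, stood in 7 PYHIN windows (3 members and 4 other genes) and in 30 of all 32851 windows (0.0913%). A match is a string of letters and not a measured binding site, and no match says only that these letters are not in the window.

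Reads from such paralogs can be hard to place. For each member, every 100-base window of its annotated transcripts (GENCODE M21) was looked up in the transcripts of all other genes. Ifi202b and Aim2 had no such window in another gene, and the share was 0.79% for Ifi207, 2.84% for Ifi203, 6.38% for Mndal, 10.7% for Ifi204 and 16.9% for Ifi209. It was 56.9% for Ifi211, where 959 of 1686 windows also occurred elsewhere (628 in Ifi205, 331 in Ifi204 and 108 in Mndal). The longest identical coding run was 495 bases between Ifi211 and Ifi205, 253 between Ifi209 and Ifi214 and 223 between Ifi204 and Ifi211. The following stretches, coding bases 141 to 260 of both genes, show how little separates Ifi204 from Ifi211 there. Capitals mark the only position at which the 120 bases differ.
Ifi204, chr1:173761604-173761723, minus strand: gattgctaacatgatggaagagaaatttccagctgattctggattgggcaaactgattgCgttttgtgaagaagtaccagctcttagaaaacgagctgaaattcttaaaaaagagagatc
Ifi211, chr1:173907602-173907721, minus strand: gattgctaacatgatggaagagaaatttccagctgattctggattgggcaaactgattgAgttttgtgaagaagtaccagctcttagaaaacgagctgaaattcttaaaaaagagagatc

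From the base after that position both genes are identical over the 223-base run, and a 100-base read inside the run has no base that tells them apart. Counts of Ifi211 are therefore the least certain among the members by this measure, and Ifi202b shares no window with another annotated transcript. The read length was not given in the sources used here. With 50-base windows the share rose to 72.8% for Ifi211 and 12.4% for Ifi203, and with 150-base windows it was 46.4% and 0.827%. The annotated Mndal gene runs over Ifi211 and most of Ifi203 on the same strand, and 37 exonic bases of Mndal and Ifi203 coincide.

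**Figure D1:**
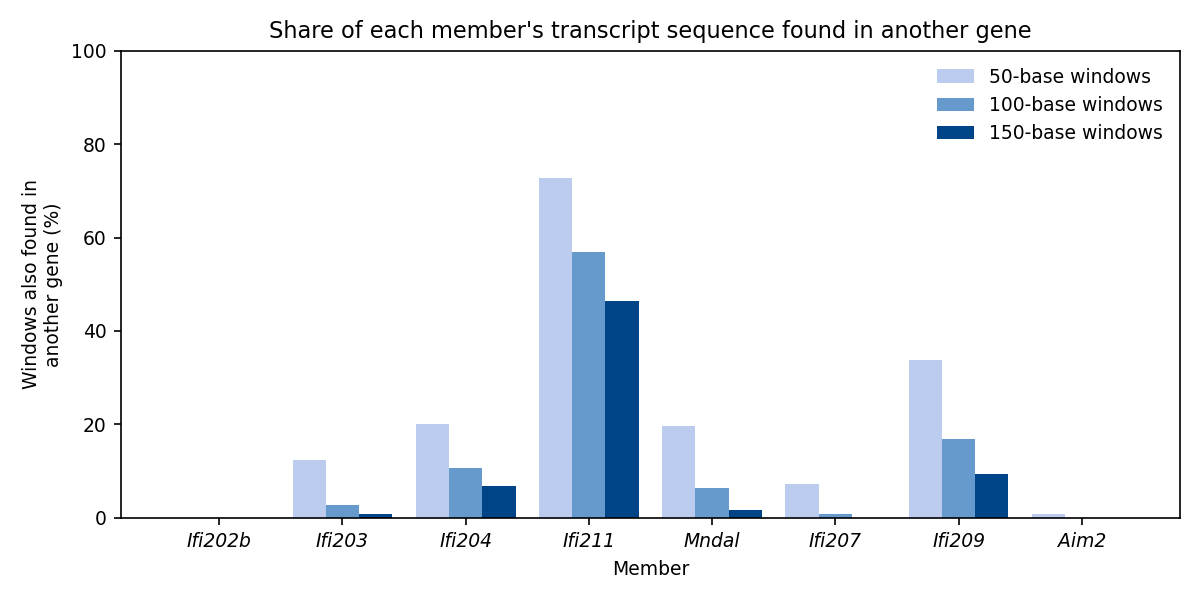
Percentage of 50-, 100- and 150-base windows of each member's annotated transcripts that also occur, on either strand, in a transcript of another gene. Ifi211 stands highest (56.9% at 100 bases), and Ifi202b has no such window at any of the 3 lengths.

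Total counts per library were 28941994 to 32185693, and trimmed-mean (TMM) factors were 0.983 to 1.01. Libraries of the same group differed by more than sampling noise (chi-square per degree of freedom 17.6 and 19.0), so none was counted as a duplicate. Levels below are counts per 1000000 counts of the library (CPM), with library sizes scaled by the TMM factors. A gene with 3 counts stood at 0.0930 to 0.103 CPM, which was taken as the floor for counting error. The counts were derived from coverage and an assumed read length, so they may differ from numbers of reads by a constant factor, and the floor and the chi-square values hold only on the deposited scale. Of the 16269 genes with enough counts to be tested, edgeR's quasi-likelihood test with Benjamini-Hochberg adjustment called 14 lower (0.0861%) and 2 higher (0.0123%) in loaded cells at an adjusted p under 0.01, the threshold of the study, and 92 lower (0.565%) and 55 higher (0.338%) at 0.05. At an unadjusted p under 0.05 the shares were 7.46% lower and 6.88% higher. DESeq2, the tool of the study, gave an adjusted p to 12484 genes and called 1.55% of them lower and 1.36% higher at 0.01.

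Of the 8 members, 7 had enough counts to be tested. Among these 7, 6 had lower levels in loaded cells, and in all 6 both loaded libraries stood below both unloaded ones, an order seen in 24.5% of all tested genes. None passed an adjusted p of 0.01 in edgeR in either direction. At an adjusted p under 0.05 there were 2 lower (Ifi202b and Ifi203), and at an unadjusted p under 0.05 there were 6 lower and 0 higher. DESeq2 called 4 lower at 0.01 (Ifi202b, Ifi203, Ifi204 and Mndal) of the 6 members to which it gave an adjusted p. The shares over all genes were 0.565% lower at 0.05, 7.46% lower and 6.88% higher unadjusted, and 1.55% lower in DESeq2. The median log2 fold change was -0.59 over the 7 tested members and -0.01 over all tested genes, of which 51.5% were negative. In bulk RNA, fewer cells that express a gene and less RNA per cell cannot be told apart.

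**Figure D2:**
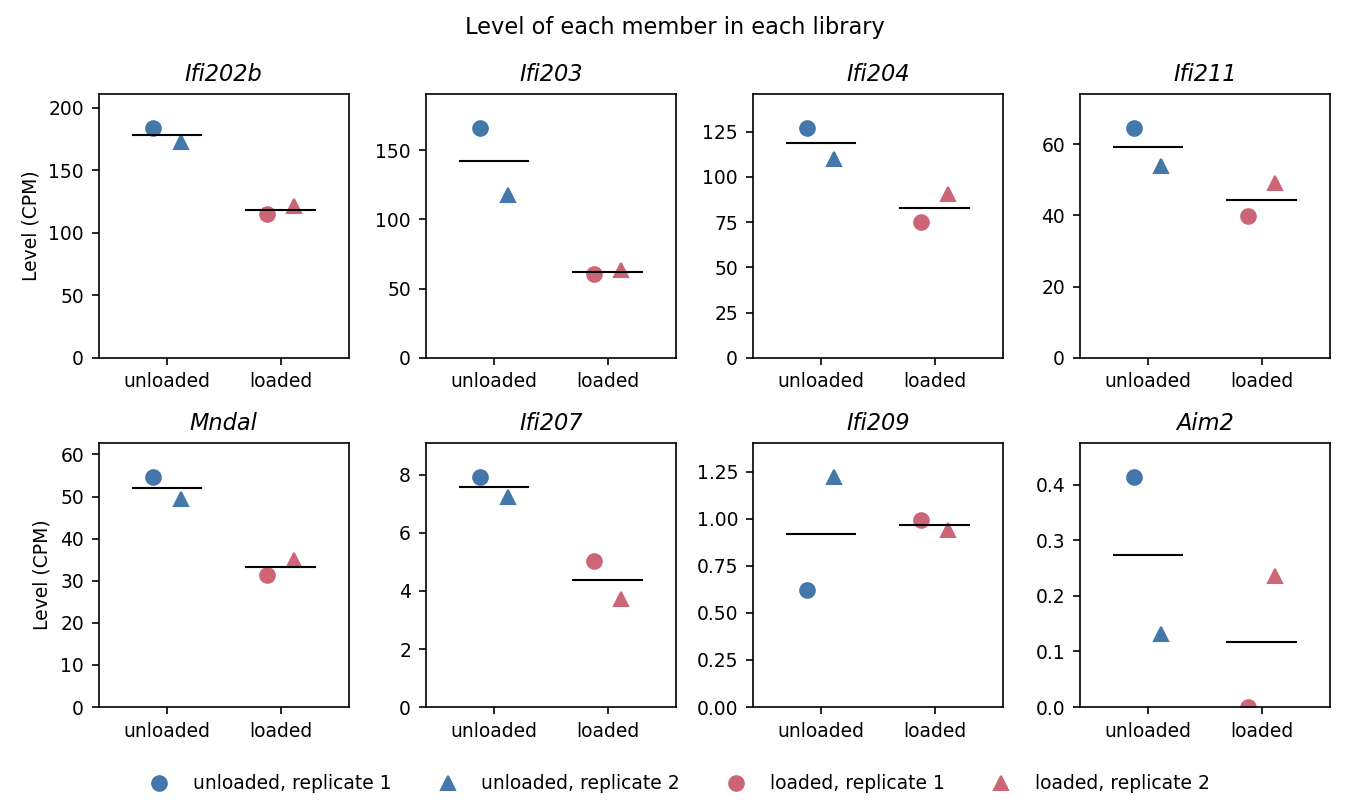
Level of each of the 8 members in CPM (each panel has its own axis from 0) in the 4 libraries, as blue symbols for unloaded and red for loaded cells, with black lines at the group means. Loaded libraries lie below unloaded ones for all members except Ifi209 and Aim2, and the unloaded Ifi203 libraries lie furthest apart among the 5 most abundant members (166 and 118 CPM).

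Levels between genes were compared per length, as CPM per kb of all annotated exons of a gene joined. In unloaded cells Ifi202b was highest, at 105 ± 4.62 CPM per kb (SD, n = 2). Ifi204 (33.3 ± 3.34) and Ifi211 (33.2 ± 4.18) followed and did not differ beyond their spread on this length. Ifi203 stood at 21.2 ± 5.08 and Mndal at 14.3 ± 1.0 CPM per kb, and Ifi207 was lower at 2.21 ± 0.143. Ifi209 (0.260 ± 0.12) and Aim2 (0.0779 ± 0.0568) were lowest. In loaded cells Ifi202b was still highest, at 69.8 ± 2.64 CPM per kb, Ifi211 (24.9 ± 3.67) and Ifi204 (23.2 ± 3.04) again did not differ beyond their spread, and neither did Ifi203 (9.22 ± 0.273) and Mndal (9.14 ± 0.701). The order depends on the length used. Per kb of the longest transcript, Ifi204 stood above Ifi211 by more than the spread in unloaded (51.6 ± 5.18 against 33.2 ± 4.18) and in loaded cells (36.0 ± 4.71 against 24.9 ± 3.67), which turns their order in loaded cells. On the same length, Ifi203 moved ahead of Ifi211 in unloaded cells (37.8 ± 9.07 against 33.2 ± 4.18, within the spread).

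Ifi202b encodes p202, the member without a pyrin domain. It lies at chr1:173962568-173982744 on the minus strand (ENSMUSG00000026535.9, 1 annotated transcript of 1697 bases). Unloaded libraries held 5340 and 5236 Ifi202b counts, and loaded ones 3720 and 3625. The groups did not overlap and the replicates lay close together. The mean level was 178.3 ± 7.85 CPM in unloaded and 118.5 ± 4.48 in loaded cells (SD, n = 2 each), which is 66.4%. Ifi202b had a log2 fold change of -0.59 (SE 0.0729), with an adjusted p of 0.0361 in edgeR and 4.02e-07 in DESeq2. Over all alternatives the log2 fold change stayed between -0.64 and -0.54, and the adjusted p ran from 4.02e-07 to 0.106. A replicate block in the edgeR model gave 0.0973. It was above 0.05 when unloaded replicate 1 (0.0899), loaded replicate 1 (0.106) or loaded replicate 2 (0.0932) was left out, and when no filter on low counts was used (0.0726).

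Ifi203 encodes a nuclear PYHIN protein with a pyrin domain (chr1:173920407-173942672, minus strand, ENSMUSG00000039997.16, 9 annotated transcripts). Its counts were 4824 and 3574 in unloaded and 1954 and 1882 in loaded libraries. The groups were far apart, but the unloaded libraries also differed from each other by 1.41 times in CPM. Means were 142 ± 34.1 and 61.9 ± 1.83 CPM, so that loaded cells held 43.6% of the unloaded level. Its log2 fold change was -1.20 (SE 0.163), the most negative among the tested members, with an adjusted p of 0.0393 in edgeR and 1.85e-13 in DESeq2. It was -0.92 (adjusted p 0.0199) without unloaded replicate 1 and -1.43 (adjusted p 0.00211) without unloaded replicate 2, which was the only setting of the quasi-likelihood test in which a member passed 0.01. Without loaded replicate 1 or loaded replicate 2 it was no longer under 0.05 (adjusted p 0.144 and 0.147), nor without a filter on low counts (0.0771). A replicate block gave 0.0558, and over all alternatives the adjusted p ran from 1.85e-13 to 0.147.

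Ifi204 encodes p204 (chr1:173747293-173766943, minus strand, ENSMUSG00000073489.6). It had 3687 and 3338 counts in unloaded and 2420 and 2691 in loaded libraries, with no overlap between the groups. The level was 119 ± 11.9 CPM in unloaded and 82.7 ± 10.8 CPM in loaded cells. This gave a log2 fold change of -0.52 (SE 0.121). The adjusted p was 0.142 in edgeR and 0.00269 in DESeq2, and over all alternatives it ran from 0.00269 to 0.371. The gene thus passed the threshold of 0.01 in DESeq2 but in no edgeR setting, and about 10.7% of its windows are shared with other genes.

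Mndal, named for its likeness to the human myeloid nuclear differentiation antigen, lies at chr1:173849126-173942491 on the minus strand (ENSMUSG00000090272.8, 10 annotated transcripts). Counts were 1586 and 1499 in unloaded and 1012 and 1042 in loaded libraries, again without overlap. Means were 52.0 ± 3.64 and 33.2 ± 2.54 CPM. A log2 fold change of -0.65 (SE 0.110) had an adjusted p of 0.073 in edgeR and 0.000911 in DESeq2, within a range of 0.000911 to 0.227 over all alternatives. Mndal was among the 3 members, with Ifi202b and Ifi203, that edgeR's exact test called lower at 0.01.

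Ifi211 lies between Mndal's first and last annotated exons (chr1:173896345-173913046, minus strand, ENSMUSG00000026536.9). Its counts were 1874 and 1636 in unloaded and 1283 and 1461 in loaded libraries. The groups did not overlap, but the replicates differed by 1.20 times in unloaded and 1.23 times in loaded cells. Means were 59.3 ± 7.46 and 44.4 ± 6.55 CPM, and the log2 fold change was -0.42 (SE 0.145) with an adjusted p of 0.281 in edgeR and 0.122 in DESeq2 (0.122 to 0.619 over all alternatives). Most of the 100-base windows of Ifi211 (56.9%, above) also occur in another gene.

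Ifi207, a less studied pyrin and HIN gene, had fewer counts (chr1:173723427-173741747, minus strand, ENSMUSG00000073490.11). They were 230 and 219 in unloaded and 162 and 111 in loaded libraries. The loaded libraries lay below the unloaded ones and apart from each other. Means were 7.57 ± 0.490 and 4.37 ± 0.917 CPM. Ifi207 thus had a log2 fold change of -0.79 (SE 0.229), with an adjusted p of 0.203 in edgeR and 0.247 in DESeq2 (0.181 to 0.450 over all alternatives).

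Ifi209, on the plus strand at chr1:173630917-173647928 (ENSMUSG00000043263.13), had 18 and 37 counts in unloaded and 32 and 28 in loaded libraries. The loaded values lay between the unloaded ones. The log2 fold change was 0.07 (SE 0.519, adjusted p 0.972 in edgeR), and it was -0.33 without unloaded replicate 1 and 0.64 without unloaded replicate 2, so a difference was not detectable at this depth.

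Aim2, the sensor of the AIM2 inflammasome (chr1:173350879-173466040, plus strand, ENSMUSG00000037860.15), had 12 and 4 counts in unloaded and 0 and 7 in loaded libraries. The groups overlapped, the levels were at most 0.413 CPM, and the gene did not pass the filter on low counts, so it was not tested. The member that gives the inflammasome its name was near the floor in both groups, while Ifi202b, whose product restrains AIM2, was the most abundant.

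**Figure D3:**
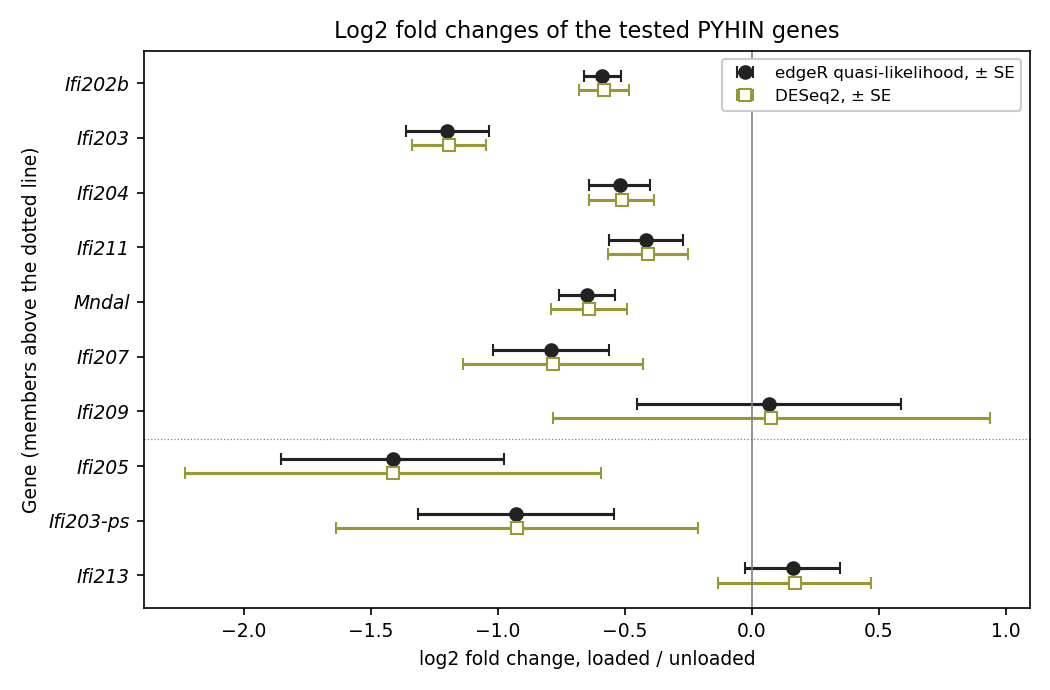
Log2 fold change (loaded over unloaded) ± SE of the 10 tested PYHIN genes by edgeR (filled circles) and DESeq2 (open squares), with members above the dotted line and other PYHIN genes below. Both tools give nearly equal estimates, and Ifi203 lies furthest from 0 among the members, at -1.20.

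The counts of each member were also set against those of Ifi202b in the same library, which needs no scaling between libraries. The ratio of Ifi203 to Ifi202b counts was 0.903 and 0.683 in unloaded and 0.525 and 0.519 in loaded cells, and the groups did not overlap. For Mndal the ratio was 0.297 and 0.286 in unloaded and 0.272 and 0.287 in loaded cells. The Mndal ratios overlapped, and so did those of Ifi204 (0.638 to 0.690 in unloaded, 0.651 to 0.742 in loaded cells) and Ifi211 (0.313 to 0.351 and 0.345 to 0.403). Ifi207 overlapped as well, at 0.0418 to 0.0431 in unloaded and 0.0306 to 0.0436 in loaded cells. These ratios are values with no test, and the share of all genes whose ratios do not overlap was not computed.

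**Figure D4:**
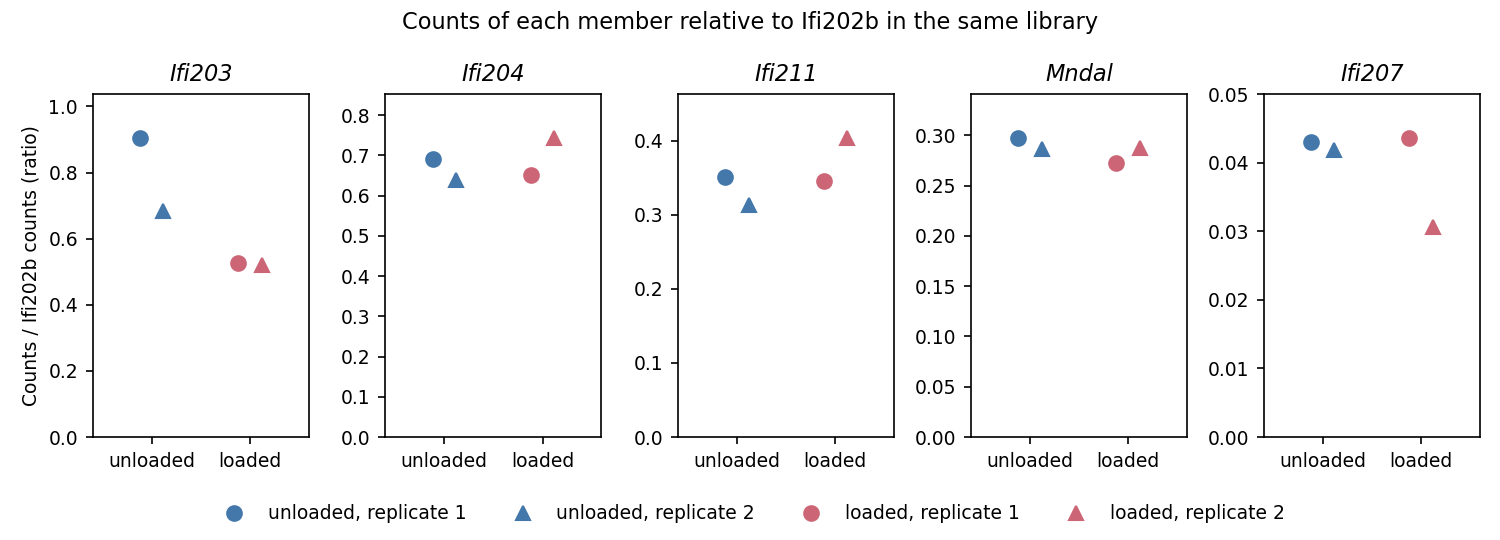
Counts of 5 members divided by the Ifi202b counts of the same library, with blue symbols for unloaded and red for loaded cells and an axis from 0 in each panel. Among these 5, only the Ifi203 panel has loaded libraries (0.525 and 0.519) entirely below the unloaded ones (0.903 and 0.683), as values with no test.

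A sum over the cluster keeps reads that were given to the wrong paralog. The 14 PYHIN genes together had 17900 and 15854 counts in unloaded and 10899 and 11160 in loaded libraries. The groups did not overlap, at 569.8 ± 65.9 CPM in unloaded and 356.1 ± 25.9 CPM in loaded cells. The log2 fold change of the sum was -0.68, as a value with no test, against a pooled SD between replicates of 0.140 on the log2 scale. It was -0.55 without unloaded replicate 1 and -0.79 without unloaded replicate 2.

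Of the other PYHIN genes of the cluster, Ifi213 stood near the member Ifi207 in unloaded cells (means of 7.58 and 7.57 CPM). In loaded cells Ifi213 stood at 8.475 and Ifi207 at 4.37 CPM. The rest were scarce. Ifi205, whose coding sequence shares the 495-base run with Ifi211, had 43 and 44 counts in unloaded and 18 and 16 in loaded libraries, and the groups did not overlap. Its log2 fold change was -1.41 (SE 0.440) with an adjusted p of 0.231 in edgeR. The pseudogene Ifi203-ps had 46 and 58 against 31 and 26 counts (log2 fold change -0.93, SE 0.385, adjusted p 0.350). Of its windows, 24.3% at 50 bases and 4.92% at 100 bases also occur in the far more abundant Ifi203. Whether reads of Ifi203 were counted there was not tested. Ifi213 did not share the order of Ifi205 and Ifi203-ps. Its counts were 240 and 209 in unloaded and 260 and 265 in loaded libraries (log2 fold change 0.16, SE 0.187, adjusted p 0.758 in edgeR). The Ifi213 promoter window carries the same 9 letters GAAATCGAA as those of Ifi203, Mndal and Ifi207. Whether these letters bear on the counts was not tested. Ifi214 had no count in unloaded and 7 and 6 in loaded libraries. The loaded mean is 2.07 times the floor of 3 counts per library set for the unloaded cells (on the deposited count scale). This value leaves out the counting error of the loaded libraries, and Ifi214 was not tested. Ifi214 shares its 253-base run with Ifi209. Ifi206 and Ifi208 had no count in any library.

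Among tested genes that are no members and have at least 1 CPM on average (13318 genes), those whose centred log2 CPM over the 4 libraries lay nearest to the mean profile of the 7 tested members were AU020206, Dnhd1, Trpm3, Pde5a and Ifit2, at Euclidean distances of 0.0225 to 0.0526. Ifit2, an interferon-induced gene of the IFIT family, was the furthest of these 5. It had 2913 and 2809 counts in unloaded and 2110 and 1964 in loaded libraries. Its log2 fold change was -0.56 (adjusted p 0.0605 in edgeR), and that of AU020206 was -0.59 (adjusted p 0.0605). Dnhd1, Trpm3 and Pde5a had log2 fold changes of -0.62, -0.59 and -0.59 (adjusted p 0.23, 0.529 and 0.301 in edgeR). Of the tested members, Ifi202b lay nearest to the mean profile (0.0321). Mndal (0.121), Ifi204 (0.191), Ifi211 (0.274) and Ifi207 (0.407) followed, and Ifi203 (0.677) and Ifi209 (0.989) lay furthest. Every tested member but Ifi202b thus lay further from the mean profile than the 5 named genes. Likeness over 4 libraries in 2 groups is a description, and many genes with a similar difference between the groups must score well.

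Interferon receptors and the proteins that carry their signal form the pathway known to induce this cluster. All 17 listed genes, which also include inhibitors of this signal, were tested and none passed 0.01 in edgeR, but 4 were lower at 0.05. At an unadjusted p under 0.05, 10 were lower and 0 higher, and DESeq2 called 7 lower. The shares over all genes were 0.565% lower at 0.05, 7.46% lower and 6.88% higher unadjusted, and 1.55% lower in DESeq2. The median log2 fold change was -0.50 against -0.01 over all tested genes. Whether these genes bear on the members was not tested.

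Among 24 genes listed for inflammasomes and pyroptosis, including partners of AIM2, 18 were tested and none passed 0.01 in edgeR. At an unadjusted p under 0.05 there were 4 lower and 0 higher, against 7.46% lower and 6.88% higher over all tested genes. DESeq2 called 1 lower, against 1.55% of the genes to which it gave an adjusted p, and the median log2 fold change was -0.19. At an adjusted p under 0.05 there was 1 lower, against 0.565% over all tested genes. The gene below 0.05 was Zbp1, an interferon-induced sensor of left-handed nucleic acids, with 504 and 487 counts in unloaded and 242 and 184 in loaded libraries (log2 fold change -1.29, SE 0.168, adjusted p 0.0374). Gsdmd, the pore-forming protein cut by caspase-1, had a log2 fold change of -0.25 (SE 0.0793, adjusted p 0.241), and Casp8 one of -0.30 (SE 0.0979, adjusted p 0.252). Pycard and Casp1 were looked at after their values were seen, as the direct partners of AIM2. Pycard had 24, 9, 8 and 4 counts and was not tested, while Casp1 had 2670 and 2729 counts in unloaded and 2801 and 2786 in loaded libraries (log2 fold change -0.01, adjusted p 0.964).

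In the cytosolic DNA sensing list built on cGAS and STING, 24 of 26 names were in the table and 22 genes were tested. At an unadjusted p under 0.05, 3 were lower and 3 higher, against 7.46% lower and 6.88% higher over all tested genes. DESeq2 called 2 lower, against 1.55% of the genes to which it gave an adjusted p, and the median log2 fold change was -0.05. None passed 0.01 in edgeR, and 2 were lower at an adjusted p under 0.05, against 0.565% over all tested genes. Both genes below 0.05 are inducible parts of the pathway. The kinase gene Ikbke had 1199 and 1147 counts in unloaded and 627 and 584 in loaded libraries (log2 fold change -1.02, SE 0.103, adjusted p 0.0207). Irf7 had 511 and 531 against 186 and 138 counts (log2 fold change -1.75, SE 0.173, adjusted p 0.0197). The lysosomal nuclease gene Dnase2a went the other way, with 114 and 212 against 491 and 307 counts (log2 fold change 1.22, SE 0.328, adjusted p 0.180).

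The list for p202 and p204 in the cell cycle, rRNA synthesis and differentiation held described partners and also marker genes such as Alpl and Bglap. Of its 24 genes, 21 were tested. None passed 0.01 in edgeR, and 1 was lower at 0.05, against 0.565% over all tested genes. At an unadjusted p under 0.05, 4 were lower and 0 higher, against 7.46% lower and 6.88% higher over all tested genes. DESeq2 called 1 lower, against 1.55% of the genes to which it gave an adjusted p, and the median log2 fold change was -0.14. The 3 genes with the smallest p were the Id genes, whose products block basic helix-loop-helix factors and are bound by p204. Id3 had 1364 and 1474 counts in unloaded and 678 and 781 in loaded libraries (log2 fold change -1.02, SE 0.131, adjusted p 0.0374). Id2 and Id1 had log2 fold changes of -0.63 (SE 0.111, adjusted p 0.0812) and -0.49 (SE 0.0936, adjusted p 0.100).

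The labelled cell type was checked against markers. Of 11 osteocyte markers, 6 had enough counts to be tested. Col1a1, Gja1, Pdpn and Phex had over 1000 counts in every library. Dmp1 had 12 to 14, Alpl at most 14, Fgf23 at most 9, Bglap and Sost at most 4, and Mepe and Dkk1 none. Pdpn encodes the dendrite protein E11 and is known to respond to load. Pdpn had 4154 and 4580 counts in unloaded and 6943 and 6798 in loaded libraries. Its log2 fold change was 0.59 (SE 0.0703, adjusted p 0.0334 in edgeR). Pdpn was the 1 marker that DESeq2 called higher, against 1.36% of all genes with an adjusted p in that tool. Phex and Col1a1 had log2 fold changes of 0.24 (SE 0.112, adjusted p 0.408) and -0.09 (SE 0.0544, adjusted p 0.534). PYHIN genes are best known from myeloid cells, so 12 macrophage and leukocyte markers were counted too. Of these, 4 were tested and none was called by either tool, Ptprc, Adgre1, Itgam and Spi1 had at most 5 counts in a library, and Tyrobp, Fcgr3, Laptm5 and Cd3e had none. Their summed level was 1581 and 1590 CPM in unloaded and 1563 and 1567 in loaded cells, nearly all of it from Csf1r (45688 to 50270 counts per library). Cd68 had 162 and 141 counts in unloaded and 99 and 84 in loaded libraries (log2 fold change -0.80, adjusted p 0.216), Lyz2 had a log2 fold change of -0.34 (adjusted p 0.775) and Cd79a one of -0.64 (adjusted p 0.734), and the part of these in the lower PYHIN levels was not tested.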

How the data were processed

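RNA from 2 unloaded and 2 loaded MLO-Y4 samples, grouped by treatment label, was sequenced after ribosomal RNA depletion. The authors mapped trimmed reads to mm10 with HISAT2 2.1.0, assembled them with StringTie 1.3.5 and made counts per gene with the prepDE script, which derives them from coverage and an assumed read length. The deposited values are raw counts, which may differ from numbers of reads by a constant factor. Annotation, strandedness, read length and multi-mapping rules were not given in the sources used here. All 55450 identifiers matched GENCODE M21.

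Genes were filtered with filterByExpr (count minimum 10) and compared by edgeR 4.0.16 (quasi-likelihood F test, R 4.3.3) with TMM factors and Benjamini-Hochberg adjustment over 16269 genes. The standard error is the log2 fold change divided by the square root of F. Total counts were 28941994 to 32185693, and the floor of 3 counts covers counting error only. Alternatives were DESeq2 1.42.0 (the authors used 1.32.0), RLE and upper-quartile factors, other filters, a replicate block, the exact test, limma-voom 3.58.1 and leaving out each library. Scripts were tested on simulated data.

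The members and lists were chosen with earlier results of these data known. Named were all members, other PYHIN genes with counts, the 3 smallest p-values of each list without a call, and the 5 genes nearest to the mean member profile. Some genes of the interferon signal list are not reported here. Promoter windows came from RefSeq (GRCm38.p6). Tests with 1 library in a group take its spread from the other group.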

Additional observations from a re-analysis of the deposited data

How the results depend on the processing

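The number of members called lower at an adjusted p under 0.01 was 0 with edgeR's quasi-likelihood test, 4 with DESeq2, 3 with edgeR's exact test, and 0 to 1 with 1 library left out (Ifi203 without unloaded replicate 2). At an adjusted p under 0.05 it was 2. No member was called higher under any alternative. Over the 10 tested PYHIN genes and all alternatives, 111 of 120 gene values were counted as unchanged in direction and side of the threshold. A further 8 passed the threshold only under the alternative. The 1 that reversed was that of Ifi209 (log2 fold change -0.33 to 0.64 when each library was left out). No PYHIN gene passed 0.01 in the main fit, so no call could be lost. Ifi209, Ifi205 and Ifi203-ps had no adjusted p in DESeq2 and were counted there as unchanged. The log2 fold change of the summed counts was -0.67 with RLE factors, -0.68 with upper-quartile factors and -0.79 to -0.55 with each library left out. The replicate block gave adjusted p-values of 0.0973 for Ifi202b and 0.0558 for Ifi203 and called 0 of all tested genes. Over all tested genes, the deviations of same-numbered libraries had a correlation of -0.057, and neither the labels nor the methods say that a number marks a shared culture or day, so the numbers were not used to pair libraries. Single genes can still differ by number in both groups. The cause of these differences was not tested. Over all genes, the calls lower were 14 by the quasi-likelihood test, 193 by DESeq2, 175 by the exact test, 0 without a filter on low counts, 25 with at least 10 counts in every library, and 0 to 40 with each library left out, and the calls higher were 2, 170, 104, 0, 4 and 0 to 19. With 2 libraries a group, the SE of 0.519 for Ifi209 and the counts of Aim2 set the limit of what could be seen for the scarce members.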
